A study of Mus musculus with 6 samples.

Results

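The coactivator MRTF-A, its partner SRF and 8 genes of contractile and actin-binding proteins were followed in mouse megakaryocytes with and without a knock down of Gata-1. The 10 genes are Mrtfa (written Mkl1 in older annotation), Srf, the tropomyosins Tpm1, Tpm2 and Tpm4, the transgelins Tagln and Tagln2, the calponins Cnn2 and Cnn3, and the smooth muscle actin gene Acta2. They were represented by every probe set whose platform annotation names only that gene, which gave 26 of the 45101 probe sets on the array. The genes were chosen with the difference between knockdown and wild type on these same arrays already known, so their own differences are a description. Where a probe set of theirs is said to be called or not, this only places it in the fit over all probe sets, is no independent test of the gene and has no p-value printed.

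MRTF-A is held in the cytoplasm by binding to actin monomers, and it moves to the nucleus when actin is assembled into filaments. There it joins SRF on a short DNA element called the CArG box and switches on genes of the actin cytoskeleton, while SRF paired with ternary complex factors such as ELK1 serves immediate early genes instead. In megakaryocytes, where actin and myosin shape the branching of the cytoplasm into platelets, MRTF-A and SRF are known to be needed for maturation, and the human gene of MRTF-A was found as a fusion partner of RBM15 in acute megakaryoblastic leukaemia.

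The series compared gene expression in 2 groups of 3 Affymetrix mouse arrays, labelled Gata-1 knock down A, B and C and Gata-1 wild type A, B and C. Per the labels, all samples were megakaryocytes grown in differentiation medium from fetal liver progenitors of embryonic day 13.5 and collected on an albumin gradient, and total RNA was measured. The labels give no strain, no construct or allele behind the knock down and no agent. Nothing in them ties the 3 samples of a group to different cultures or animals, and p-values therefore cover the spread among these arrays alone, part or all of which may be technical. Gata1 itself had signals of 153.5, 143.3 and 194.7 under knockdown, against 8723.7, 8246.5 and 8495.6 for wild type. Values are deposited signals, on a linear scale that the authors had brought to a trimmed mean of 500.0 on each array, and the precision is limited by the number of arrays.

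The arrays differed in ways that touch dim genes. Median signals were 111.3 to 137.8 in knockdown and 101.6 to 104.4 in wild type. Knockdown B stood apart: its median was the highest and its brightest bacterial control reached 132, where the other 5 arrays had 60.7 to 82.2. Values without it are given for some of the probe sets below, and not for every one that it moves. A signal at or below the brightest of the 27 bacterial control probe sets of its array is called within the control level. Of the 10 tested megakaryocyte markers, 8 were lower in knockdown, with a summed signal of 92120 to 114600 against 140300 to 150200 in wild type. Of all genes tested, each by its brightest probe set, 17.2% were lower. The markers were chosen with earlier results of these data known, so their count is a description. In bulk RNA of this kind, fewer cells of a type and less RNA per cell cannot be told apart.

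Differences were fitted with limma on log2(signal + 32) after quantile normalization, over 31526 probe sets, and a probe set was called at a Benjamini-Hochberg adjusted p of 0.05 over all of them. Log2 fold changes below are knockdown minus wild type on that scale, with the standard error of the fit, and the offset understates the change of dim genes. Of all tested probe sets, 14.3% were called lower and 16.1% higher. On 19.8% every knockdown array lay below every wild-type array, and on 23.2% every one lay above. The balance of all calls moved with the scaling of the arrays: 52.9% were higher after quantile normalization, 32.9% after median centring of the arrays and 60.0% for values as deposited. The median of all tested probe sets was 0.04, against 0.15 with values as deposited.

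The DNA upstream of the gene starts is shown first, because the CArG box is where SRF and MRTF-A are known to act. RefSeq promoters of the mouse build GRCm38.p6 were at hand for 9 of the 10 genes, with 2 starts for Mrtfa and no entry for Tagln. The search covered both strands from 250 bases before to 50 bases after each start, for the CArG box (a pair of C, then 6 letters that are each A or T, then a pair of G) and for the same element with 1 position off. The full element was found in 2 of the 9 genes, Srf and Cnn2, against 1.63% of 32851 promoters in the table. The form with 1 position off lay in 4 genes, Mrtfa, Srf, Tpm1 and Acta2, against 19.9% of all promoters. The genes were picked as a group around MRTF-A and SRF, and counts of genes stand here beside shares of promoters. Nothing is therefore read from these comparisons. The promoter of Srf, whose own product binds this element, and that of Cnn2 are printed from 250 bases upstream to the start, 5′ to 3′ along the gene, with full CArG boxes in capitals.
Srf promoter, chr17:46556163-46556412, minus strand: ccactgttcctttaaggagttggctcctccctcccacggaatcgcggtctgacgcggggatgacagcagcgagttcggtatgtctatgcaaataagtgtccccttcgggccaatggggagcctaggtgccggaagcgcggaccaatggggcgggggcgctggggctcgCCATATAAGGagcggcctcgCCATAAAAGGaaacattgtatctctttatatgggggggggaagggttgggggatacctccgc
Cnn2 promoter, chr10:79988350-79988599, plus strand: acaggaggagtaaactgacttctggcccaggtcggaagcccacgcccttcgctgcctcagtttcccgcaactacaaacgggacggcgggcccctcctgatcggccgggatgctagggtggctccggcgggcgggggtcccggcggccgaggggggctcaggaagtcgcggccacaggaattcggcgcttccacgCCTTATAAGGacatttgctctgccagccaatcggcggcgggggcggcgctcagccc

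The Srf promoter held a pair of full boxes, at -82 to -73 and at -62 to -53 bases from the start, and a further element with 1 position off at -39 to -30. The single box of Cnn2 lay at -56 to -47. The promoters that held only the form with 1 position off are printed in the same way, with that form in capitals.
Mrtfa promoter, chr15:81190737-81190986, minus strand: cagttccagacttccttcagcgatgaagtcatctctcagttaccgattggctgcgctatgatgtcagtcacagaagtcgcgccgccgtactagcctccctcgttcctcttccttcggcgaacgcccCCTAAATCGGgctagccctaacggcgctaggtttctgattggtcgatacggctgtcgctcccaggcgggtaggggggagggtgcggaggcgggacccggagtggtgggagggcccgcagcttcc
Tpm1 promoter, chr9:67049214-67049463, minus strand: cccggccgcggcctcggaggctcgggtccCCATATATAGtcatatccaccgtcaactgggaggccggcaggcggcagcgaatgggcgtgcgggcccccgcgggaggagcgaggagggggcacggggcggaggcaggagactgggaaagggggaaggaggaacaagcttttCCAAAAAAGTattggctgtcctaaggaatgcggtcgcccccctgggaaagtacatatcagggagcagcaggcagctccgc
Acta2 promoter, chr19:34255374-34255623, minus strand: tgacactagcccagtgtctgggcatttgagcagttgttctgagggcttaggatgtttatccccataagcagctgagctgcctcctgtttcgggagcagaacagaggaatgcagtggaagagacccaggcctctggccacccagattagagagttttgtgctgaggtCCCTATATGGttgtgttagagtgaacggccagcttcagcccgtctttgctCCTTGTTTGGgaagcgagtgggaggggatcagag

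These imperfect elements lay at -124 to -115 in Mrtfa, at -221 to -212 and -80 to -71 in Tpm1, and at -84 to -75 and -34 to -25 in Acta2. No match to either form was found in the windows of Tpm2, Tpm4, Tagln2 or Cnn3 or at the second start of Mrtfa, which says only that those letters are not in these windows. The motif known for GATA factors (A or T, then GATA, then A or G) was found in 1 of the 9 genes, Tagln2. It lay at -98 to -93 on the minus strand. The share of all promoters was 29.8%, again promoters beside a count of genes. A match describes the letters and does not show binding.

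**Figure D1:**
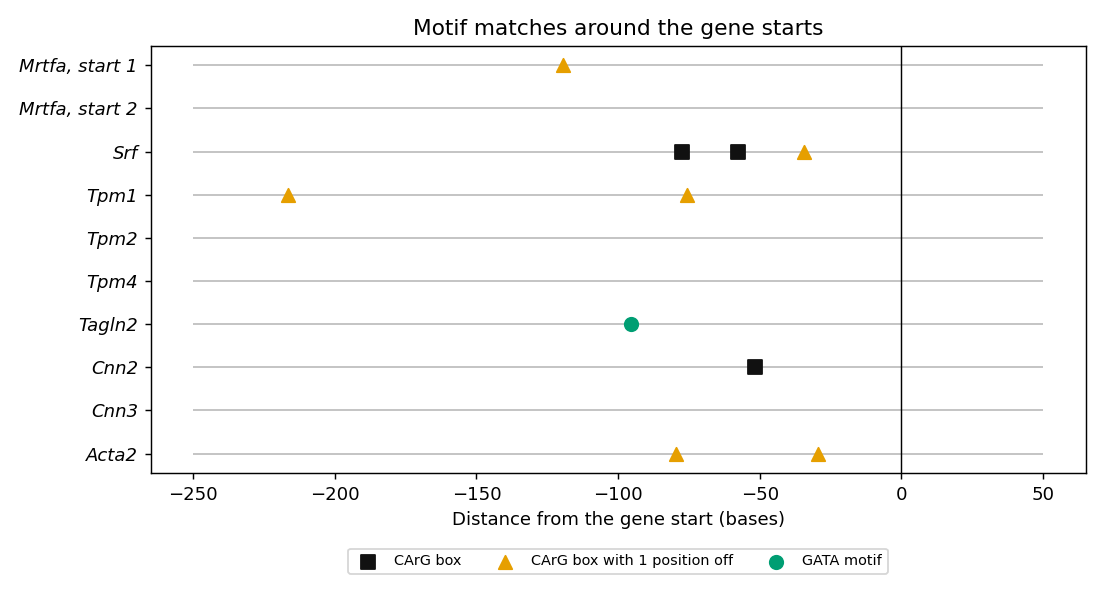
Motif matches in RefSeq promoters of 9 genes, by distance in bases from the gene start (horizontal axis), with squares for full CArG boxes, triangles for the form with 1 position off and a circle for the GATA motif. Full boxes appear only in Srf and Cnn2, all within 82 bases of the start.

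Of the 26 probe sets, 22 passed the filter on low signals. Among these 22, 7 were called lower in knockdown, 1 was called higher and 14 were not called. The backgrounds of 14.3% and 16.1% are given above, and nothing is read from the comparison because the genes were selected on this contrast. The median log2 fold change of the 22 was -0.26. After normalization every knockdown array lay below every wild-type array for 8 of them and above for 1. The shares over all tested probe sets were 19.8% and 23.2%, and nothing is read from this comparison either. The lower probe sets belonged to Mrtfa, Srf, Tpm1, Tpm4, Tagln2 and Cnn2, and the higher one to Cnn3. No probe set of Tpm2 or Acta2 was called, and that of Tagln was not tested. Without knockdown B the counts were again 7 lower and 1 higher.

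**Figure D2:**
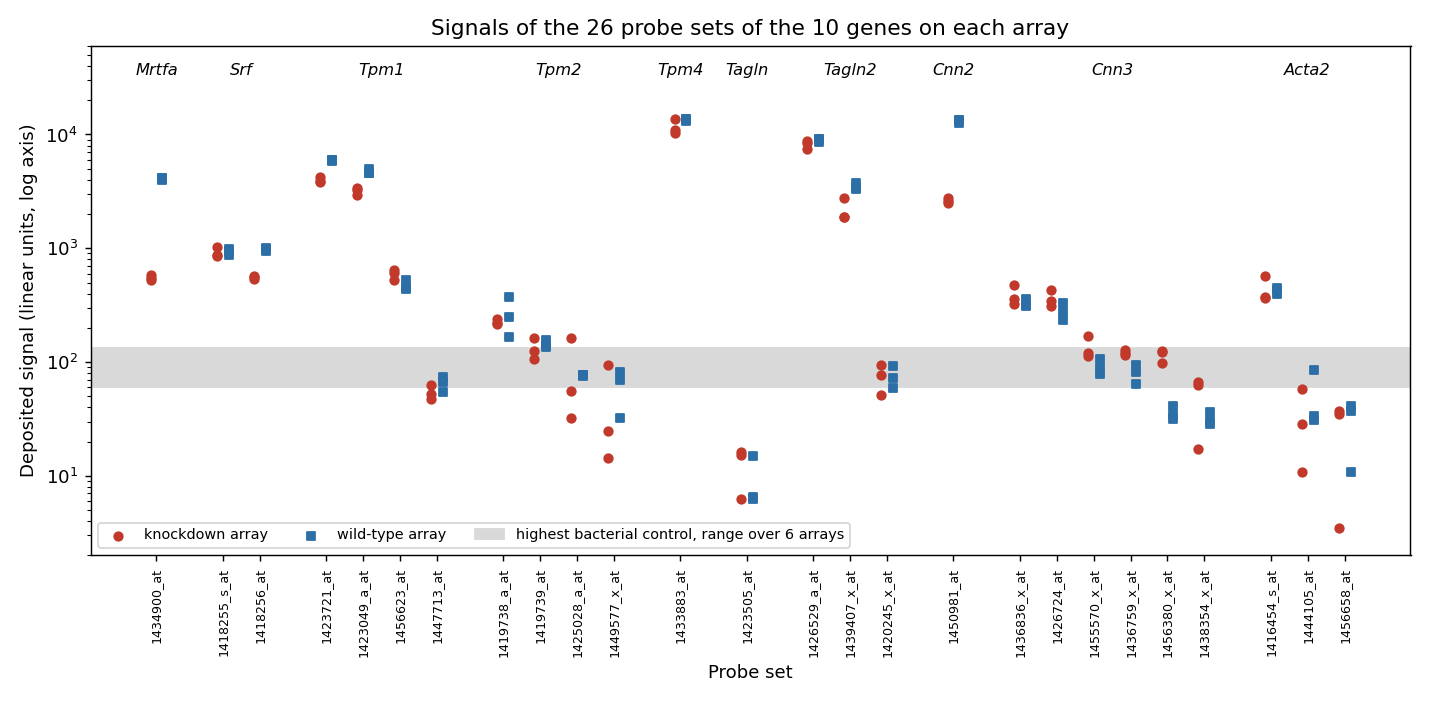
Deposited signal (vertical log axis, linear signal units) of each probe set of the 10 genes (horizontal axis), with circles for the 3 knockdown arrays and squares for the 3 wild-type arrays. The band spans the brightest bacterial control over the 6 arrays, 60.7 to 132, and Mrtfa and Cnn2 show the widest gaps between the groups.

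The coactivator came first in size. The 1 probe set of Mrtfa (1434900_at) read 577.3, 530.4 and 548.4 in knockdown and 4178.3, 3980.5 and 4131.3 in wild type. All 3 knockdown arrays were far below all 3 wild-type arrays, and replicates differed little within a group, with a coefficient of variation of 4.29% in knockdown and 2.52% in wild type. Knockdown averaged 552 ± 23.7 and wild type 4097 ± 103 (SD, n = 3 each), a log2 fold change of -2.83 ± 0.07 (SE), or 7.10-fold lower. Of all tested probe sets, 0.257% had a lower log2 fold change, a rank on the contrast that was known when the genes were chosen. The knockdown signals stayed above the control level on every array. Without knockdown B the log2 fold change of Mrtfa was -2.82.

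SRF, the DNA-binding partner, was read by a pair of probe sets that gave different answers. Probe set 1418256_at read 562.4, 574.0 and 540.6 in knockdown and 1015.0, 950.6 and 994.6 in wild type. The groups did not overlap, with means of 559 ± 17.0 and 986.7 ± 32.9 (SD, n = 3 each) and a log2 fold change of -0.84 ± 0.08, or 1.79-fold lower. Probe set 1418255_s_at, whose suffix marks probes that can match several transcripts, read 872.3, 1018.8 and 846.9 in knockdown and 941.9, 988.5 and 877.9 in wild type. There the groups overlapped and the difference, -0.07 ± 0.10, was not called. The annotation lists the same source sequence for both probe sets, so the lower level of Srf rests on 1 of its 2 probe sets. Which transcripts each of them reads was not tested.

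Tropomyosins lie along actin filaments and set which other proteins reach them, and each of these genes gives rise to several isoforms. For Tpm1, probe set 1423721_at read 3900.5, 4271.4 and 3848.4 in knockdown and 5956.9, 5860.3 and 6022.1 in wild type. Probe set 1423049_a_at, whose suffix marks alternative transcripts of 1 gene, read 2947.5, 3223.8 and 3407.6 in knockdown and 4953.9, 4607.6 and 4601.2 in wild type. On both, every knockdown array was below every wild-type array, and the log2 fold changes were alike, -0.48 ± 0.06 and -0.48 ± 0.07. Another Tpm1 probe set, 1456623_at, read 642.1, 607.8 and 525.3 in knockdown and 435.9, 527.3 and 449.9 in wild type. Its groups overlapped and the value of 0.23 ± 0.12 was not called. The dimmest, 1447713_at, was at or below the control level on all 3 knockdown arrays and on 1 wild-type array and was not called (-0.34 ± 0.28).

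Tpm4, a tropomyosin of non-muscle cells, had 1 probe set, which read 10368.9, 13706.8 and 10983.7 in knockdown and 13681.3, 13007.0 and 13813.6 in wild type. In the deposited signals the groups overlapped, because knockdown B was above 2 of the 3 wild-type arrays, and they no longer did after quantile normalization. The log2 fold change was -0.29 ± 0.06, and the probe set was called lower. Without knockdown B it was -0.35, and the call was lost with the signals as deposited (-0.22) and without the intensity trend (-0.29).

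Tpm2, the tropomyosin known best from muscle, was dim on these arrays and gave 4 probe sets, none of them called. The brightest, 1419738_a_at, read 219.0, 215.2 and 240.3 in knockdown and 246.9, 370.6 and 164.8 in wild type. The wild-type arrays lay on both sides of the knockdown arrays, with a log2 fold change of -0.28 ± 0.23. That value rested on single arrays, being -0.03 without wild type B and -0.52 without wild type C. Probe set 1425028_a_at read 55.9, 162.5 and 32.4 in knockdown and 77.5, 76.6 and 75.6 in wild type. Knockdown B was the highest of the 6 arrays there and the other knockdown arrays the lowest. Its log2 fold change of -0.24 ± 0.35 was -0.62 without knockdown B and 0.08 without knockdown C, so its sign is not settled. The remaining 2 had values of -0.30 ± 0.18 for 1419739_at and -0.56 ± 0.40 for 1449577_x_at, and the latter was at or below the control level on all 3 knockdown arrays and 1 wild-type array. Without knockdown A the value of 1449577_x_at was -0.32.

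Transgelins are small actin-binding proteins of the calponin family. Tagln, a widely used smooth muscle marker and a classic target of SRF, read 6.3, 16.2 and 15.1 in knockdown and 15.0, 6.5 and 6.3 in wild type. All 6 signals were within the control level, and the probe set did not pass the filter. Its relative Tagln2 was bright: probe set 1426529_a_at read 7520.5, 8748.6 and 8403.8 in knockdown and 9099.6, 8641.3 and 9176.0 in wild type. Those groups overlapped and the difference of -0.07 ± 0.05 was not called, although with arrays centred on their medians it was -0.32 and was called lower.

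A further Tagln2 probe set, 1439407_x_at, read 2745.8, 1871.6 and 1874.2 in knockdown and 3351.6, 3757.9 and 3383.6 in wild type. Every knockdown array was lower there, with knockdown A the nearest to wild type, and the log2 fold change was -0.65 ± 0.13. Its suffix marks probes that resemble other sequences, and signal from those was not tested. The lower call of Tagln2 thus came from 1 of its 3 probe sets. The last of the 3, 1420245_x_at, was at or below the control level on all 3 knockdown arrays and 1 wild-type array (-0.20 ± 0.26, not called).

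Calponins bind actin and restrain the myosin motor. Cnn2, the calponin of blood cells and other non-muscle cells, showed the second largest difference among the 10 genes. Its 1 probe set, 1450981_at, read 2600.1, 2512.1 and 2743.1 in knockdown and 13292.8, 12704.1 and 13316.2 in wild type. The groups were widely separated, with means of 2618 ± 117 and 13100 ± 347 (SD, n = 3 each) and a log2 fold change of -2.31 ± 0.05, or 4.97-fold lower. Of all tested probe sets, 0.498% had a lower log2 fold change, again a rank on the known contrast. Without knockdown B the log2 fold change of Cnn2 was -2.26.

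Cnn3, a calponin found in many tissues, went the other way on 1 of 6 probe sets. Probe set 1456380_x_at, whose suffix marks probes that resemble other sequences, read 97.3, 125.2 and 122.6 in knockdown and 31.3, 34.5 and 40.8 in wild type. Signal from such sequences was not tested. All 3 wild-type signals, and that of knockdown B, were within the control level, so the difference is given as a bound of at least 1.34-fold higher in knockdown, from a fitted value of 0.95 ± 0.25. The call was lost without knockdown C, where the log2 fold change was 0.89. Probe set 1438354_x_at, with wild-type signals of 30.5, 36.4 and 28.6, did not pass the filter on low signals. Probe set 1456380_x_at was nearly as dim in wild type and passed through its knockdown signals. Its call is therefore a description and no independent result. The other 4 tested probe sets, with log2 fold changes of 0.07 to 0.26, were not called. On a pair of these, 1455570_x_at and 1436759_x_at, the deposited signals were higher on every knockdown array, and the groups overlapped after normalization. The brightest of the 4, 1436836_x_at, read 471.2, 360.1 and 322.0 in knockdown and 313.5, 359.6 and 316.9 in wild type, and its groups overlapped. Its value of 0.07 ± 0.15 was -0.07 without knockdown A and -0.01 with median centring.

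Acta2 encodes the actin of smooth muscle. Its brightest probe set, 1416454_s_at, read 374.5, 574.4 and 364.1 in knockdown and 428.6, 449.2 and 393.3 in wild type. The suffix marks probes that can match several transcripts, and signal from transcripts of other genes was not tested. Knockdown B was the highest of the 6 arrays and the other knockdown arrays the lowest, so the groups overlapped, with a log2 fold change of -0.07 ± 0.17 that was not called. Without knockdown B it was -0.28, and without knockdown A or C it was 0.03 or 0.04, in each case not called. The other 2 probe sets of Acta2 did not pass the filter, and neither was above the control level on any knockdown array.

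**Figure D3:**
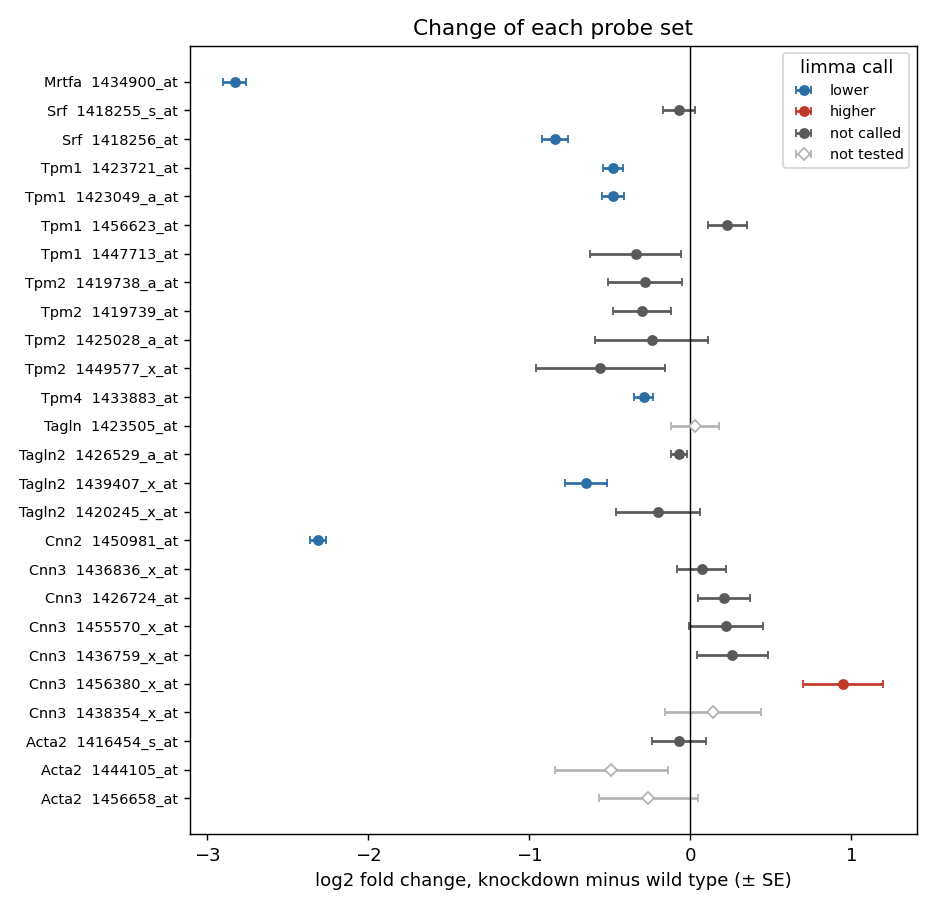
Log2 fold change, knockdown minus wild type (horizontal axis, bars are SE of the limma fit), of each probe set of the 10 genes (vertical axis), coloured by call, with open diamonds for the 4 not tested. Mrtfa at -2.83 and Cnn2 at -2.31 lie apart from the rest, and the probe sets of Srf, Tpm1, Tagln2 and Cnn3 differ among themselves.

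The 10 genes thus differed widely in the size of their change. Mrtfa and Cnn2 were lower by 7.10-fold and 4.97-fold, the called probe sets of Srf, Tpm1, Tpm4 and Tagln2 by 1.22-fold to 1.79-fold, and the called one of Cnn3 was higher.

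**Figure D4:**
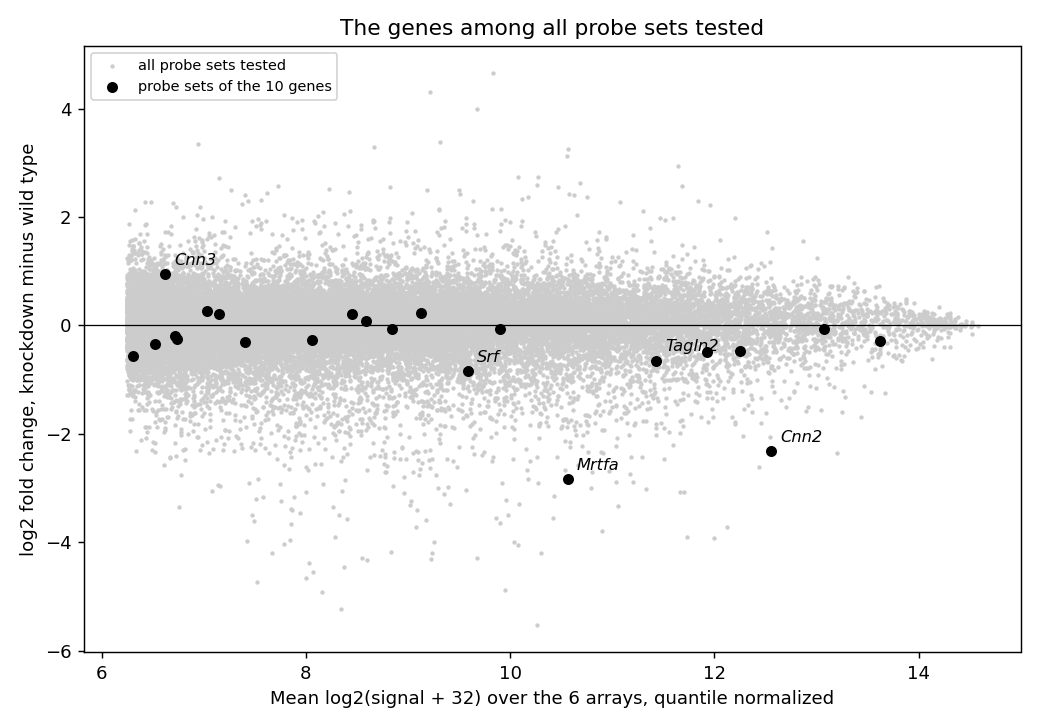
Mean log2(signal + 32) over the 6 arrays (horizontal axis) against log2 fold change, knockdown minus wild type (vertical axis), for all 31526 tested probe sets in grey and the 22 tested probe sets of the 10 genes in black. Mrtfa at -2.83 and Cnn2 at -2.31 lie below the dense part of the cloud at their level.

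Genes that followed Mrtfa most closely over the 6 arrays were sought by the root mean square distance of log2 values, each gene centred on its wild-type mean, among 14223 other genes with 1 probe set each. The nearest were the calpain protease gene Capn2 at a distance of 0.08, the chemokine gene Ccl6 at 0.087, the Arf GTPase regulator Asap2 at 0.088, the calcium-binding protein gene S100a4 at 0.091 and the zinc finger gene Zfp874a at 0.104. All 5 had log2 fold changes between -2.90 and -2.71, since the measure ranks genes by the same contrast. Cnn2 stood at rank 53 with a distance of 0.366. The other genes stood at ranks 2103 for Tpm1, 3382 for Tpm4, 3747 for Tpm2, 5612 for Tagln2, 5632 for Srf, 5844 for Acta2 and 7506 for Cnn3, each by its brightest probe set, which for Srf is the one that was not called.

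The rest of the pathway was read from lists of genes, each by its brightest probe set. Of all 14224 genes tested, 17.2% were called lower and 18.4% higher, with a median log2 fold change of 0.03. All lists, those here and below and the megakaryocyte markers above, were chosen with earlier results of these data known. Their counts are therefore a description and no independent support, and the p-values only place each gene in the fit. Among regulators upstream of MRTF-A and SRF, 21 of 22 had a named probe set, 19 were tested, and 6 were lower and 5 higher, with a median of -0.16. Fhl2, a LIM protein that binds SRF and MRTFs, was within the control level in all knockdown samples and at least 1.46-fold lower (limma adjusted p 6.59e-04). Rhoc, a GTPase that promotes actin assembly, rose by 1.35 ± 0.09 on the log2 scale (limma adjusted p 3.08e-06), with means of 3508 ± 432 for knockdown and 1384 ± 50.2 for wild type (SD, n = 3 each). Mical2, an enzyme that oxidizes actin in the nucleus and so frees MRTF-A, rose by 0.82 ± 0.15 (limma adjusted p 0.0023). That was 1 of its 2 tested probe sets, and the other was not called. Scai, a repressor of MRTF-A, was lower, at -0.78 ± 0.21 (limma adjusted p 0.016), on 1 of its 3 tested probe sets, and the others were not called. That call was lost without knockdown C (-0.69), without wild type B (-0.67) or without the intensity trend (-0.78, adjusted p 0.0593).

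The close relatives of the 10 genes and their partners at filament ends formed a list of 12, of which 10 were tested, 3 were lower and 7 were not called, with a median of -0.43. Mrtfb, the paralog of Mrtfa, read 815.1, 921.2 and 931.2 in knockdown and 1059.0, 1044.4 and 1103.8 in wild type. Its groups did not overlap, and it was lower, at -0.28 ± 0.09 (limma adjusted p 0.0325), a call that was lost when any 1 wild-type array was left out (adjusted p 0.0821 to 0.132) and without the intensity trend (adjusted p 0.0849). The difference in log2 fold change between Mrtfa and Mrtfb was not tested. Tmod3, which caps the slow-growing filament end, fell by 1.0 ± 0.08 on the log2 scale (limma adjusted p 6.12e-06). Of its 4 tested probe sets, 3 were called lower. Acta1, the skeletal muscle actin, was within the control level in all knockdown samples and at least 1.09-fold lower, and Tpm3 was not called (0.11 ± 0.05). Myocd, the cardiac and smooth muscle relative of Mrtfa, and Cnn1, the smooth muscle calponin, were within the control level on all 6 arrays.

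Other cytoskeletal genes known as SRF targets or as partners of these proteins made up a list of 33. Of these, 29 were tested, 20 were lower and 1 was higher, with a median of -0.40. Like the other lists, this one was chosen with earlier results known, so nothing is read from its count against all genes. Myl9, the regulatory light chain of non-muscle myosin, read 1758.8, 1571.1 and 1607.5 in wild type and was within the control level on all 3 knockdown arrays, at least 13.8-fold lower (limma adjusted p 1.17e-07). Tgfb1i1, a focal adhesion protein, fell by 2.41 ± 0.13 on the log2 scale (limma adjusted p 4.55e-07). The secreted adhesion protein Thbs1 fell by 2.36 ± 0.05 (limma adjusted p 2.89e-09) and the actin crosslinker Actn1 fell by 1.99 ± 0.07 (limma adjusted p 2.22e-08). The 1 gene called higher was Pdlim5 (0.88, with 5 of its 7 tested probe sets called higher), and beta-actin was not called (-0.07). Pdlim5, beta-actin, and Myocd, Cnn1, Lmod1 and Pdgfrb among the dim genes, were named after their values were seen.

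Immediate early genes that SRF serves with ternary complex factors did not move one way. Of 14 listed, 12 were tested, and 4 were lower and 4 higher, with a median of -0.13. Fosb fell by 1.98 ± 0.14 (limma adjusted p 3.59e-06), Dusp1, a phosphatase of MAP kinases, fell by 1.89 ± 0.06 (limma adjusted p 1.93e-08) and Fos fell by 1.75 ± 0.08 (limma adjusted p 1.95e-07). The nuclear receptor gene Nr4a1 rose by 0.99 ± 0.13 (limma adjusted p 2.62e-04). The count of higher genes was 2 with signals as deposited or centred on medians, and 2 without wild type A.

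**Figure D5:**
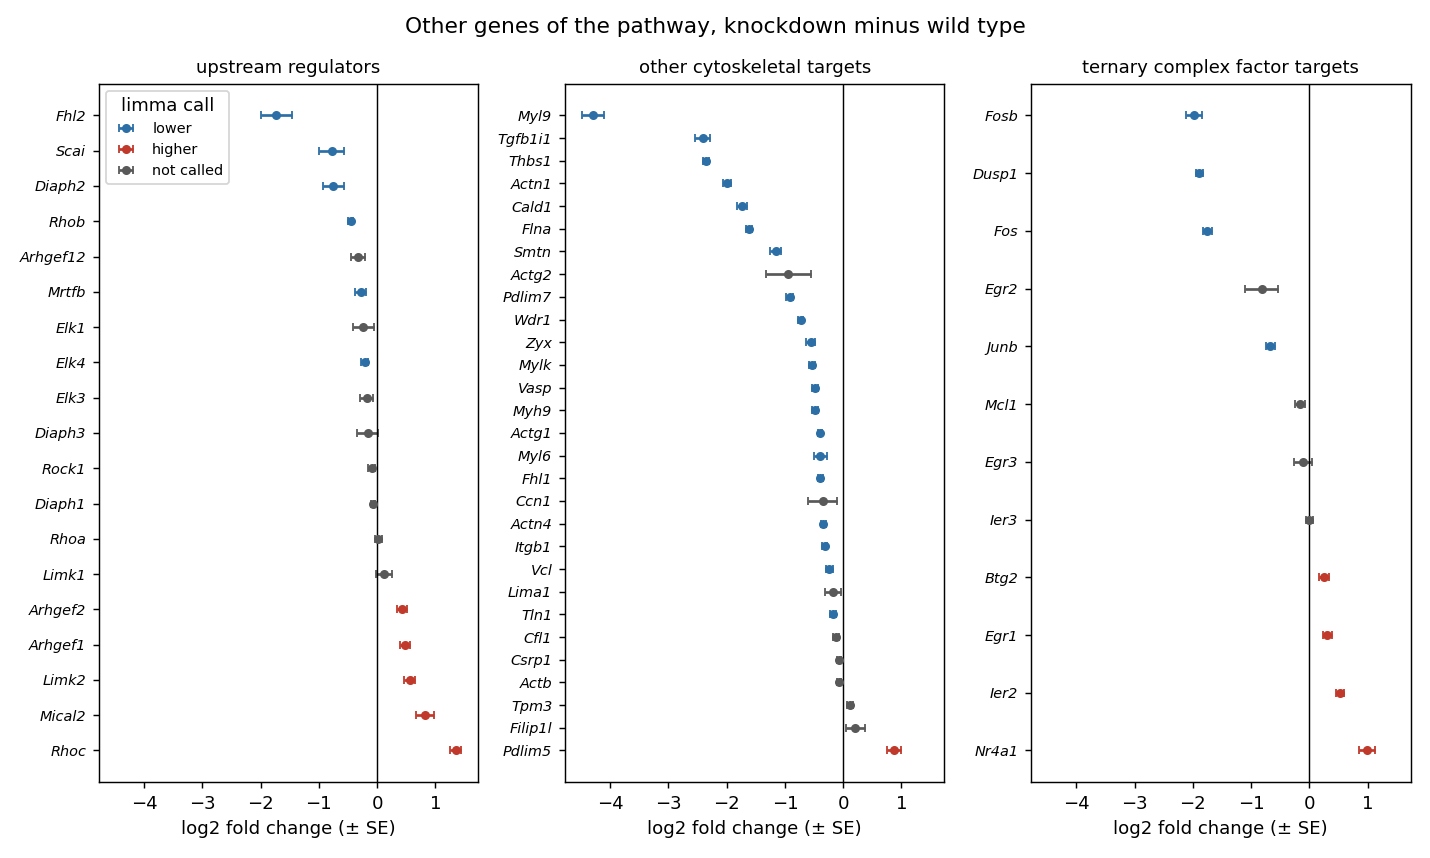
Log2 fold change, knockdown minus wild type (horizontal axes, bars are SE), of the tested genes of 3 lists (vertical axes), coloured by limma call. In the list of other cytoskeletal targets 20 of 29 genes are lower, from Myl9 at the top, and 1 is higher, while the lists of regulators and of ternary complex factor targets have 6 lower and 5 higher, and 4 of each.

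Markers of other cell types that express contractile genes were read beside these results. Of 15 smooth muscle and stromal markers, 11 were tested, of which 10 were not called and 1, Synpo2, was higher (at least 1.86-fold, on 1 of its 3 tested probe sets). Their summed signal was 1161 to 1709 in knockdown and 1050 to 1100 in wild type. The highest sum was that of knockdown B, the array with the brightest bacterial control, and the sums include signals within the control level. Of the 15, 6 were within the control level on all 6 arrays, and these 6 include Cnn1, Lmod1 and Pdgfrb. Of 9 macrophage markers, 7 were tested, of which 6 were lower and 1 was not called, where 17.2% of all genes tested were lower. The other 2 were within the control level on all 6 arrays. Their summed signal, over all 9, was 6367 to 6566 in knockdown against 16500 to 17260 in wild type. Csf1r fell by 1.40 ± 0.05 (limma adjusted p 6.07e-08). Of 6 mast cell markers 4 were lower, with sums of 1110 to 1379 against 2923 to 3169. Endothelial markers were 2 lower and 2 higher of 6, with sums of 2958 to 3865 against 1712 to 1925, hepatocyte markers 1 lower of 5, with 610.6 to 804.6 against 1209 to 1365, and red cell markers 1 higher of 4, with 983.2 to 1163 against 936.3 to 1002. That red cell gene, Slc4a1, lost its call with median centring (adjusted p 0.278), without knockdown C (0.0514) and without any 1 wild-type array (0.0531 to 0.075). Their part in the values of the 10 genes was not tested.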

How the data were processed

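RNA of 3 knockdown and 3 wild-type megakaryocyte samples was measured on Affymetrix arrays. The deposited table holds 1 intensity per probe set and array on a linear scale, scaled by the authors to a mean of 500.0 with 2% trimmed at each end, as the values show. The software behind the signals, like the build, is not given in the sources used here. Groups came from the sample titles. Signals were taken as log2(signal + 32) and quantile normalized. The 64 controls and probe sets below the 30th percentile of mean log2 signal were left out. Groups were compared with limma 3.58.1 in R 4.3.3 (lmFit and trended eBayes on group alone, two-sided, Benjamini-Hochberg adjustment over 31526 probe sets). The fit was also run on simulated independent values, drawn after normalization and with far fewer probe sets changed than were called here. That run cannot judge the normalization.

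Of the other probe sets, 34945 had 1 gene in the annotation, 932 had several and 9160 had none. Gene numbers were used to update symbols from a RefSeq table of GRCm38.p6, and a gene was read by its brightest probe set. Where signals of 1 group were at or below the brightest of 27 bacterial controls on at least 2 of 3 arrays, folds are bounds against the higher, per array, of that control and the gene's own signal.

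Genes named are the 10 members, up to 4 genes of each list (called genes with the largest changes, then the brightest not called), the 5 genes nearest Mrtfa, and Gata1. Of marker lists only some are named, and 6 genes outside the rule, marked in the text, were chosen after their values were seen. The members and all lists were chosen with earlier results of these data known. Alternatives tried were the offset, normalization, filter, intensity trend, replicate block, probe set choice and leaving out each array.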

Additional observations from a re-analysis of the deposited data

How the results depend on the processing

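Over 14 alternatives to the settings used, the number of called probe sets ranged from 7383 to 10709, against 9577. The labels do not say whether the letters A to C pair the samples. Deviations of same-letter arrays from their group means correlated at -0.0423, -0.0174 and -0.00958. These values show no shared effect of a letter, but they cannot settle whether the samples were paired. With the letter as a replicate block 8757 probe sets were called, and Mrtfb lost its call (adjusted p 0.0597).

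The log2 fold change of Mrtfa ranged from -3.02 to -2.69, that of Cnn2 from -2.51 to -2.26 and that of Srf 1418256_at from -0.98 to -0.77. The count of higher probe sets of the 10 genes was 0 with a filter at the 50th percentile, which removed the Cnn3 probe set, and 0 to 1 when an array was left out. Upstream regulators called lower were 3 without the intensity trend, and those called higher were 3 with median centring. Ternary complex factor targets called higher were 2 with median centring, without the intensity trend and with values as deposited, and 2 to 4 when an array was left out. Other cytoskeletal targets called higher were 1 to 2 when an array was left out, 2 of them without knockdown A. Among named probe sets and genes, 0 called changes reversed, 16 values lost their call and 2 gained one. Values not called in the main fit turned sign in some settings for Tpm2 1425028_a_at, Cnn3 1436836_x_at, Acta2 and Tpm3. That of Tpm3 ranged from -0.07 to 0.15, and it was called higher without knockdown A (0.15, limma adjusted p 0.0236). The cause of these changes was not tested.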
